A study of Mus musculus with 5 samples.

Results

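Limb buds of mouse embryos with the genotype intraTAD2-i4CTCF, called i4CTCF here, were compared with limb buds of the genotype intraTAD2 for how often DNA around Shh, the Sonic hedgehog gene, touched other DNA of the same region. Both maps came from capture Hi-C at E10.5 (days of embryonic development), which counts ligated pairs of DNA fragments after enrichment for a chosen stretch of the genome. Per the labels, both genotypes were homozygous and both sets of embryos came from mating, so the name intraTAD2 is shared by both sides of the comparison. The sources used here do not give what either allele changes or how many embryos were pooled. Every pair of 5 kb bins on chromosome 5 from 27,480,001 to 30,270,000 (mm10) entered the comparison, and 152,588 of the 155,961 bin pairs were compared after 6 bins with few contacts had been left out. The series holds 5 mutant libraries, of which 2 are compared here, with 1 library a side. The maps of intraTAD3 (mating), intraTAD2-2xBorCTCF and intraTAD2-1xBorCTCF (both tetraploid aggregation) and the authors' wild-type map, which belongs to no sample, are given as levels beside them.

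The i4CTCF map held 1,256,568 recovered contacts and the intraTAD2 map 2,942,790. Contacts were listed for 73.6% of bin pairs in i4CTCF and for 88.1% in intraTAD2. Contacts under 20 kb made up 42.1% of the total in i4CTCF and 32.6% in intraTAD2, with 35.8% to 37.9% in the other 4 maps. Contact maps hold no expression, so the labelled tissue could not be checked against marker genes. With 1 library a side there was no test and no spread between embryos, and every 95% interval below covers counting error only.

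Shh encodes a secreted signal that patterns the developing limb from thumb to little finger. Its limb enhancer, the ZRS, lies in an intron of the neighbouring gene Lmbr1, and the stretch of chromosome between Shh and Lmbr1 folds into a topologically associating domain (TAD), a region whose parts contact each other more often than they contact their surroundings. CTCF is a DNA-binding protein that stops the extrusion of chromatin loops by cohesin and is found at many TAD borders. The flank beyond Shh holds En2, a homeobox gene of midbrain and hindbrain development, and the flank beyond Lmbr1 holds Mnx1, a homeobox gene of motor neurons and pancreas. The title of the series names enhancer position and its surroundings as the subject.

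The promoters of genes at the ends of the contacts that differed between the maps, and that of Lmbr1, which holds the ZRS, are shown from RefSeq (GRCm38.p6), read 5′ to 3′ on the minus strand on which the 3 genes lie, with every CG dinucleotide in capitals. They lie at chr5:29478421-29478720 (Mnx1), chr5:28210119-28210418 (Cnpy1) and chr5:29378341-29378640 (Lmbr1), and each runs from 250 bases before to 50 bases after a transcription start.
Mnx1: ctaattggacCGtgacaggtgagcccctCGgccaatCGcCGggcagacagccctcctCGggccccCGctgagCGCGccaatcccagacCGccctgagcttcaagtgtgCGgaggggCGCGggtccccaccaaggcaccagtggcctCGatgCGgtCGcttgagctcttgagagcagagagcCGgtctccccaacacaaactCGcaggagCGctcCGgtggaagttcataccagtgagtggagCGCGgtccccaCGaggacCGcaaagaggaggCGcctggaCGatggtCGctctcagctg
Cnpy1: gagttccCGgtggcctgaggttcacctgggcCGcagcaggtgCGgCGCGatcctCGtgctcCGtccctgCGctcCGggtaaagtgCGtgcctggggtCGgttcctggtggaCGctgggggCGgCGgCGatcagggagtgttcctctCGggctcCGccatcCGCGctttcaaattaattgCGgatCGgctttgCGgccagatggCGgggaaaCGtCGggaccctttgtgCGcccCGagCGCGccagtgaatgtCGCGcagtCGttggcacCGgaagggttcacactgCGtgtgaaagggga
Lmbr1: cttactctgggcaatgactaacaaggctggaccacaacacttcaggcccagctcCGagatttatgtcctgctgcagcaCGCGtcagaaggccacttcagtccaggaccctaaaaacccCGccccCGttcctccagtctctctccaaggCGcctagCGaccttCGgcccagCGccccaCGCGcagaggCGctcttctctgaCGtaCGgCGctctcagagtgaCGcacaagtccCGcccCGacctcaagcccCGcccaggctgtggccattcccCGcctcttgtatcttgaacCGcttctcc
Of the 13 listed genes, 11 were matched to a promoter. En2 and Shh had no match, so their promoters are not shown. The Mnx1 promoter held 26 CG dinucleotides, the Cnpy1 promoter shown 34 and the Lmbr1 promoter 21, against a median of 7 over all 32,851 promoters of 300 bases. These counts stood at percentiles 84.5, 93.0 and 76.9 of all promoters. Cnpy1 has a second RefSeq promoter at the outer end of the gene, chr5:28245739-28246038, which held 6 (percentile 47.9) and is not shown. The letters CCCTC, part of the sequence that CTCF binds, were searched on both strands and contain no CG. They occurred 3 times in the Mnx1 promoter, were not found in the windows of either Cnpy1 promoter or of Lmbr1, and occurred in 66.0% of all promoters.

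Contacts between En2, Shh and Mnx1 were higher in i4CTCF than in intraTAD2, while the contact of Shh with the whole of Lmbr1 differed little. Within each map, values were scaled to their mean over bin pairs equally far apart, so that a distance-normalised contact of 1 is the average at that distance. Genes were taken as the bins of the gene and 1 bin either side, and a pair was called higher or lower where the 2 maps differed at least 1.2-fold with a counting interval of the log2 ratio that left out 0. Of 77 pairs among the 13 listed genes, 6 were called higher in i4CTCF and 4 lower. With the median in place of the mean at each distance there were 16 higher and 1 lower, and with bin pairs listed in both maps alone 15 higher and 2 lower. Over all 28,830 windows of the sizes and distances of these gene pairs, 2.86% were called higher and 2.88% lower. The median log2 ratio over the 77 pairs was -0.029. In 5 of the 6 higher pairs i4CTCF had the highest level of the 6 maps, and in 3 of them intraTAD2 had the lowest.

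The contact of Shh with En2 was 2.24 in i4CTCF and 1.37 in intraTAD2 (log2 ratio 0.71, interval 0.52 to 0.90), from 364 contacts in i4CTCF and 672 in intraTAD2. It was 1.48 in intraTAD3, 1.44 in 2xBorCTCF, 2.21 in 1xBorCTCF and 1.80 in wild type. The value of i4CTCF thus lay beside that of 1xBorCTCF, above wild type, and the value of intraTAD2 was the lowest of the 6. The ratio stood at percentile 99.8 of 496 windows of like size and distance, and it was higher in i4CTCF in 17 of the 20 bin pairs that make up the window. Cnpy1, a gene next to En2 whose zebrafish counterpart acts in FGF signalling, showed the same direction with Shh. The Shh contact of Cnpy1 was 1.14 in i4CTCF and 0.766 in intraTAD2 (0.57, 0.42 to 0.72; 662 contacts in i4CTCF and 1271 in intraTAD2), with 0.806 to 1.01 in the other mutant maps and 1.05 in wild type. In 44 of its 60 bin pairs i4CTCF was higher, and the ratio stood at percentile 98.8 of 503 like windows. Paxip1, which encodes a subunit of a histone H3K4 methyltransferase complex, had a Shh contact of 0.934 in i4CTCF and 0.726 in intraTAD2 (0.36, 0.093 to 0.64). Here 2xBorCTCF (1.21) and 1xBorCTCF (1.06) lay above i4CTCF, and wild type stood at 0.794. The Paxip1 call was lost when the genes were taken without their neighbouring bins (0.32, -0.095 to 0.73), and against the median of the other 5 maps the log2 ratio was 0.17.

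The strongest contact of the listed genes, that of En2 with Mnx1 across the whole Shh domain, was higher too. It was 12.3 in i4CTCF and 8.10 in intraTAD2 (0.60, 0.43 to 0.77), from 527 contacts in i4CTCF and 789 in intraTAD2. The other maps had 8.79 (intraTAD3), 5.52 (2xBorCTCF), 8.98 (1xBorCTCF) and 10.7 (wild type). The genes lie 1302 kb apart, En2 at 28,165,696 to 28,172,190 and Mnx1 at 29,473,823 to 29,478,470. The bin pair that joins 28,170,001 to 28,175,000 with 29,470,001 to 29,475,000 alone held 64 contacts in i4CTCF and 78 in intraTAD2, a level of 20.4 in i4CTCF and 9.64 in intraTAD2. The Mnx1 contact of Shh was 5.28 in i4CTCF and 4.26 in intraTAD2 (0.31, 0.073 to 0.55), and 5.15 in wild type, which lay beside i4CTCF. At the bin pair of 28,460,001 to 28,465,000 with the same Mnx1 bin it was 10.6 from 27 contacts in i4CTCF and 5.56 from 36 contacts in intraTAD2. There wild type, with 5.44 from 14 contacts, lay beside intraTAD2, and 1xBorCTCF, with 9.14 from 53 contacts, lay nearer to i4CTCF. The Mnx1 contact of Cnpy1, whose window lies next to that of En2, was 3.49 in i4CTCF and 2.78 in intraTAD2 (0.33, 0.14 to 0.52), and 3.21 in wild type. Among windows of like size and distance the ratio stood at percentile 94.4 for Paxip1 with Shh, 94.2 for En2 with Mnx1, 87.4 for Cnpy1 with Mnx1 and 83.5 for Shh with Mnx1, less far out than the pairs of Shh with En2 and Cnpy1. Of their single bin pairs, i4CTCF was higher in 14 of 16 for En2 with Mnx1. It was higher in 14 of 20 for Shh with Mnx1 and in 29 of 48 for Cnpy1 with Mnx1. No such share over all bin pairs is given here, so these counts are a description only.

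**Figure D1:**
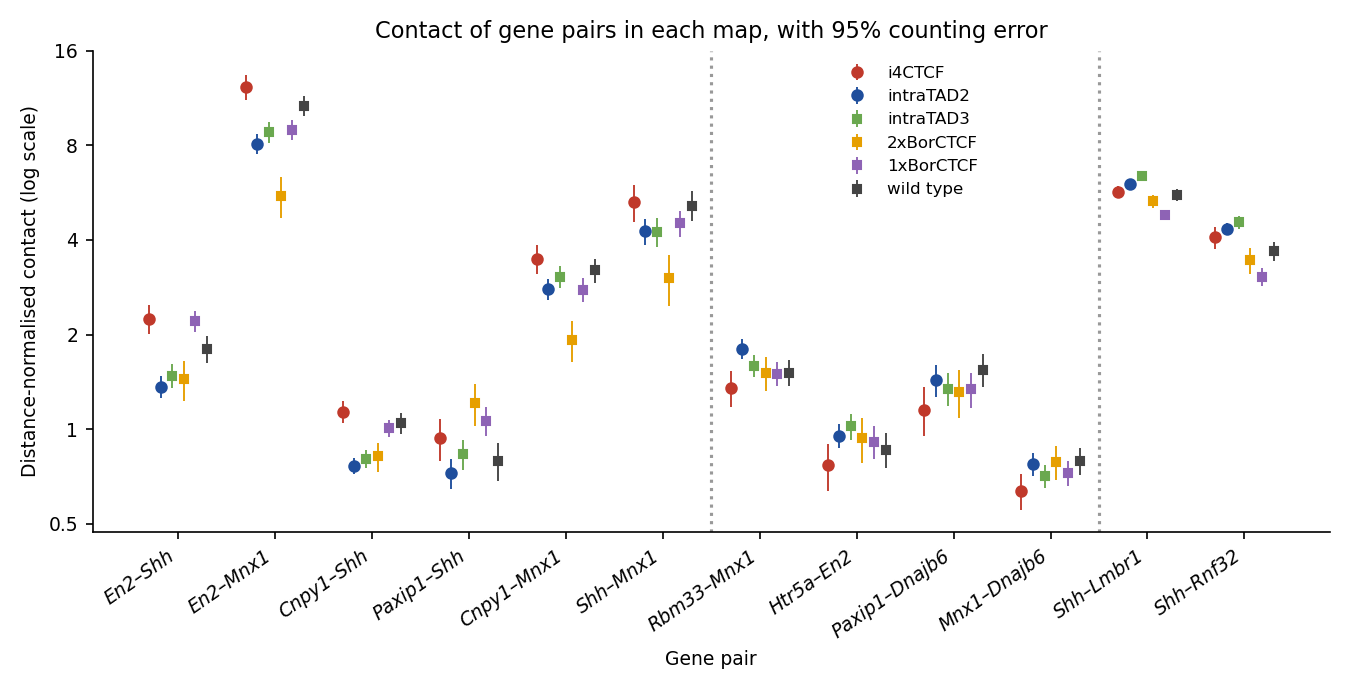
Distance-normalised contact (log scale) of gene pairs in the 6 maps, 1 library each, with error bars for 95% counting error. The first 6 pairs were called higher in i4CTCF and the next 4 lower, and the last 2, Shh with Lmbr1 and with Rnf32, were not called. En2–Mnx1 stands at 12.3 in i4CTCF and 8.10 in intraTAD2.

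The i4CTCF map also had the largest contrast of the 6 maps. The SD of log2 contact over 1357 windows of 50 kb was 0.606 in i4CTCF and 0.590 in intraTAD2, against 0.533 to 0.598 in the other maps. These SDs include counting error, and i4CTCF was the shallower of the 2 maps compared. The part of depth in the SD was not tested. Nor was the part of contrast and of the larger share of short contacts in these results. Of the 5 gene pairs with a wild-type level of 3 or more, 3 were called higher. The other 2, Shh with Lmbr1 and with Rnf32, had slightly lower values in i4CTCF than in intraTAD2 and were not called.

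The contact of Shh with Lmbr1 was 5.67 in i4CTCF and 6.02 in intraTAD2, from 2387 contacts in i4CTCF and 6614 in intraTAD2. The log2 ratio of -0.085 (-0.16 to -0.012) was under the 1.2-fold threshold and stood at percentile 34.1 of 372 like windows. The sign turned with the median in place of the mean at each distance (0.014) and against the median of the other 5 maps (0.027). Shh (28,456,840 to 28,467,101) and Lmbr1 (29,229,802 to 29,378,421) lie 762.7 kb apart. The level was 6.39 in intraTAD3, 5.31 in 2xBorCTCF, 4.80 in 1xBorCTCF and 5.56 in wild type. Next to Lmbr1 lies Rnf32, which encodes a RING finger protein, and its Shh contact was 4.08 in i4CTCF and 4.34 in intraTAD2 (-0.089, -0.22 to 0.044).

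Within Lmbr1, 3 bins from 29,305,001 to 29,320,000 held nearly no contacts in the intraTAD3 map, by which they were chosen, and were looked at on their own. Their contact with Shh was 4.99 in i4CTCF, from 159 contacts, and 6.84 in intraTAD2, from 563 contacts (-0.46, -0.73 to -0.18). It was 4.98 in 2xBorCTCF, 5.54 in 1xBorCTCF and 5.57 in wild type, so intraTAD2 stood above these maps and i4CTCF beside 2xBorCTCF. The bins themselves differed between these maps, which limits the comparison. The bin at 29,310,001 held 0.994 times the median bin in i4CTCF, 0.987 times in intraTAD2 and 1.44 times in wild type. At 29,315,001 it was 1.02 times in i4CTCF, 0.993 times in intraTAD2 and 1.53 times in wild type. In 2xBorCTCF, 40.2% of the contacts of that bin lay within the bin itself. The call was lost when the Shh window was taken without its neighbouring bins (-0.15, -0.48 to 0.19), and against the median of the other 5 maps the value was -0.15. The contact of these bins with Dnajb6, an Hsp40 co-chaperone gene on the Mnx1 side, was called higher, at 0.934 in i4CTCF and 0.644 in intraTAD2 (0.54, 0.14 to 0.93). The interval of i4CTCF held 0 against wild type (0.34, -0.064 to 0.75) and against 1xBorCTCF (0.31, -0.11 to 0.73), but not against 2xBorCTCF (0.55, 0.080 to 1.03). The contact with each of the other 10 listed genes outside Lmbr1 was not called. No share of calls is given for all stretches of 3 bins, so these calls are a description only.

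With the other genes Shh had contacts that were not called. On the En2 side, the level with Htr5a, a serotonin receptor gene, was 0.821 in i4CTCF and 0.724 in intraTAD2. With Insig1, which acts in sterol sensing, the level was 0.844 in i4CTCF and 0.752 in intraTAD2, and with the adjacent gene Rbm33 it was 0.492 in i4CTCF and 0.489 in intraTAD2. On the Mnx1 side, the level with the nucleolar protein gene Nom1 was 2.75 in i4CTCF and 2.44 in intraTAD2. With the ubiquitin ligase gene Ube3c it was 1.495 in i4CTCF and 1.429 in intraTAD2, and with Dnajb6 0.916 in i4CTCF and 0.890 in intraTAD2. Over its 12 pairs Shh had a median log2 ratio of 0.17, with 4 called higher and 0 lower.

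Of the 11 pairs of Lmbr1, 0 were called in either direction. The level was 1.51 in i4CTCF and 1.53 in intraTAD2 for Paxip1, 1.54 in i4CTCF and 1.41 in intraTAD2 for Htr5a, and 1.27 in i4CTCF and 1.23 in intraTAD2 for Insig1. For En2 the level was 1.26 in i4CTCF and 1.40 in intraTAD2 (-0.15, -0.34 to 0.032), and for Cnpy1 1.79 in i4CTCF and 1.72 in intraTAD2. For Rbm33 it was 2.77 in i4CTCF and 2.88 in intraTAD2. The Mnx1 contact of Lmbr1, at 0.434 in i4CTCF and 0.511 in intraTAD2 (-0.23, -0.38 to -0.092), had an interval below 0 but was under 1.2-fold. For Nom1 the level was 0.542 in i4CTCF and 0.552 in intraTAD2, for Ube3c 0.823 in i4CTCF and 0.822 in intraTAD2, and for Dnajb6 0.764 in i4CTCF and 0.729 in intraTAD2.

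All 4 gene pairs called lower had their lowest level of the 6 maps in i4CTCF. Rbm33 with Mnx1 stood at 1.35 in i4CTCF and 1.80 in intraTAD2 (-0.42, -0.63 to -0.20), although Rbm33 lies between En2 and Shh, whose contacts with Mnx1 were higher. The other maps had 1.503 to 1.591, and against the median of the other 5 maps the log2 ratio was -0.17, under 1.2-fold. Htr5a with En2 stood at 0.766 in i4CTCF and 0.953 in intraTAD2 (-0.32, -0.59 to -0.038), and Mnx1 with Dnajb6 at 0.637 in i4CTCF and 0.773 in intraTAD2 (-0.28, -0.50 to -0.052). Paxip1 with Dnajb6, the farthest pair of the 4, stood at 1.15 in i4CTCF and 1.43 in intraTAD2 (-0.31, -0.62 to -0.0057), and its sign turned when bin pairs had to be listed in both maps (0.47, 0.14 to 0.80). Besides, the Mnx1–Dnajb6, Htr5a–En2 and Paxip1–Dnajb6 calls were each lost under 3 or more of the alternatives.

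Across the region, most of the called windows between the En2 side and the Shh domain were higher in i4CTCF, and most of those between the domain and the Mnx1 side were lower, though the second direction turned under 2 settings. The region was cut into 1412 windows of 50 kb by 50 kb with at least 50 contacts in both maps, of which 44 (3.12%) were called higher in i4CTCF and 47 (3.33%) lower. With the median in place of the mean at each distance there were 171 higher and 12 lower, and with bin pairs listed in both maps alone 460 higher and 3 lower. The median log2 ratio of all windows was 0.073 and 0.19 with these settings and 0.0064 with the one used here. Between the En2 side and the domain 23 of 323 windows were called higher and 4 lower. Between the domain and the Mnx1 side 6 of 264 were called higher and 24 lower. With the median, the counts were 85 higher and 1 lower on the En2 side and 16 higher and 9 lower on the Mnx1 side. With bin pairs listed in both maps alone they were 173 higher and 0 lower on the En2 side and 110 higher and 1 lower on the Mnx1 side. Inside the domain 0 of 153 windows were called in either direction. Windows that touch Shh were called higher 6 times and lower 0 times of 53, those that touch Cnpy1 9 times and 0 times of 106, and those that touch Mnx1 2 times and 8 times of 106. Windows that touch En2, next to Cnpy1, were called higher 2 times and lower 6 times of 54. For Rbm33 the counts were 5 higher and 9 lower of 160, for Lmbr1 3 and 2 of 262, and for Ube3c 4 and 12 of 202.

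The 5 windows with the largest ratio higher in i4CTCF included that of Cnpy1 with Shh (28,180,001 to 28,230,000 with 28,430,001 to 28,480,000), at 1.18 in i4CTCF and 0.787 in intraTAD2 (0.58, 0.41 to 0.76) from 777 contacts in i4CTCF and 1412 in intraTAD2. The other 4 rested on 60 to 189 contacts in i4CTCF, and their log2 ratios ranged from 0.54 to 0.91. Among them, the window at 27,980,001 with that of Dnajb6 at 29,730,001 had 1.18 in i4CTCF and 0.625 in intraTAD2. The one at 27,880,001 with 28,480,001, next to Shh, had 1.21 in i4CTCF and 0.788 in intraTAD2. The remaining 2 joined 28,080,001 with 29,830,001 (0.899 in i4CTCF and 0.587 in intraTAD2) and 29,130,001 with the window of the thymidylate synthase gene Tyms at 30,030,001 (0.630 in i4CTCF and 0.434 in intraTAD2). Of the 5 windows with the lowest ratio, 3 joined the domain with the Mnx1 side. The window at 28,680,001 with that of Nom1 and Mnx1 at 29,430,001 had the most contacts, with 0.470 in i4CTCF from 181 contacts and 0.708 in intraTAD2 from 804 contacts (-0.59, -0.85 to -0.34). The same window at 28,680,001 with that of Hadha and Hadhb, genes of mitochondrial fatty acid oxidation, had 0.338 in i4CTCF and 0.496 in intraTAD2. This window at 28,680,001 holds the raised bin described below, which was chosen by its excess of contacts in intraTAD2 over wild type. The window at 28,580,001 with that of the cytokine gene Il6 had 0.489 in i4CTCF and 0.794 in intraTAD2. The last 2 joined 27,980,001 with 29,880,001 (0.738 in i4CTCF and 1.32 in intraTAD2) and Rbm33 at 28,330,001 with Tyms at 30,030,001 (0.880 in i4CTCF and 1.31 in intraTAD2).

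**Figure D2:**
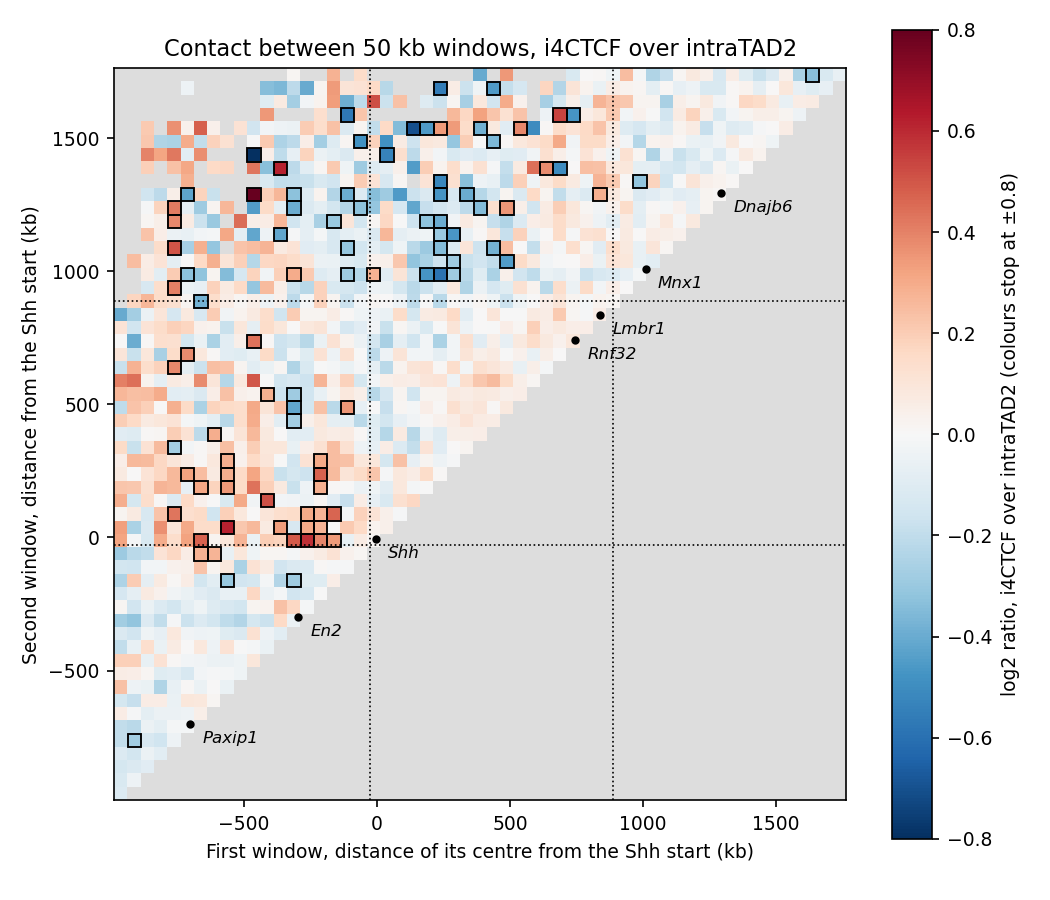
The log2 ratio of contact, i4CTCF over intraTAD2, between windows of 50 kb by their distance from the Shh start in kb. Red is higher in i4CTCF, blue is lower, boxes mark the called windows, dotted lines the ends of the Shh domain and grey windows were not compared. The boxes between the En2 side and the domain are mostly red (23 red, 4 blue) and those between the domain and the Mnx1 side mostly blue (6 red, 24 blue, turned under 2 settings).

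Seen from single genes in windows of 25 kb, the higher contacts lay in few windows. Windows with at least 15 contacts in both maps were compared. Seen from every stretch of the region as wide as Shh, En2 or Mnx1, 3.78% of 22,539 such windows were called higher and 3.37% lower. From Shh, 7 of 38 windows on the En2 side were called higher and 0 lower. The window of Cnpy1 at 28,205,001 had 1.51 in i4CTCF and 0.881 in intraTAD2 (0.78, 0.55 to 1.01), that of En2 at 28,155,001 had 2.12 in i4CTCF and 1.28 in intraTAD2 (0.72, 0.55 to 0.89), and one at 28,105,001, which holds no listed gene, had 1.46 in i4CTCF and 1.04 in intraTAD2 (0.50, 0.25 to 0.74). That last window was called higher from En2 and from Mnx1 as well. Its contact with Mnx1 was 6.07 in i4CTCF and 3.95 in intraTAD2 (0.62, 0.35 to 0.89), against 5.00 in wild type, and its contact with En2 was 2.03 in i4CTCF and 1.58 in intraTAD2. From Shh into its own domain, 0 of 34 windows were called higher and 3 lower, among them the window of Lmbr1 at 29,305,001, with 5.45 in i4CTCF and 6.93 in intraTAD2 (-0.35, -0.55 to -0.15).

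En2 had 10 of 34 windows on its own side called lower and 1 higher, so its higher contacts with Shh and Mnx1 stood beside lower contacts nearby. At 28,280,001, for example, En2 had 0.718 in i4CTCF and 0.925 in intraTAD2 (-0.37, -0.60 to -0.14), with 0.711 in wild type. Wild type lay beside i4CTCF in some of these windows and beside intraTAD2 in others. At 27,930,001 En2 had 0.353 in i4CTCF and 0.561 in intraTAD2 (-0.67, -1.16 to -0.17), with 0.545 in wild type. Mnx1 had 9 of 35 windows in the Shh domain called lower and 0 higher, with a median log2 ratio of -0.40. Its contact with the border window next to Shh, at 28,430,001, was 3.49 in i4CTCF and 2.13 in intraTAD2 (0.71, 0.14 to 1.28). From Lmbr1, 0 of 38 windows on the En2 side and 0 of 29 in the domain were called, and on the Mnx1 side 2 of 34 were higher and 1 lower, against 2.63% higher and 2.69% lower from all stretches as wide as Lmbr1. The lower one was the window of Mnx1 at 29,455,001 (0.429 in i4CTCF and 0.516 in intraTAD2; -0.27, -0.39 to -0.14).

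**Figure D3:**
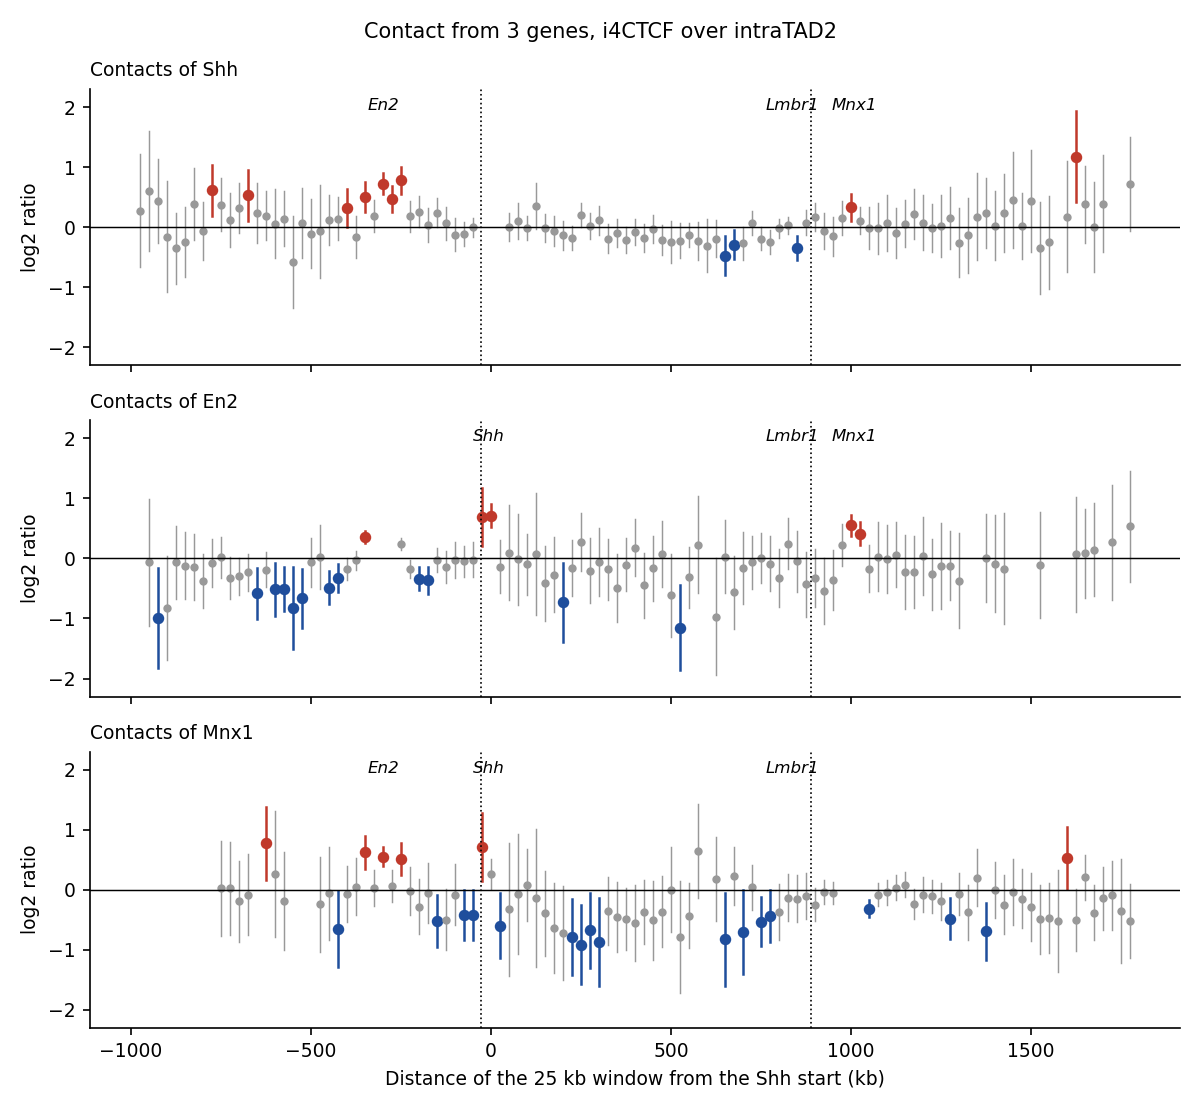
Log2 ratio of contact, i4CTCF over intraTAD2, of Shh (top), En2 (middle) and Mnx1 (bottom) with windows of 25 kb, by distance from the Shh start in kb. Bars are 95% counting intervals, red windows were called higher in i4CTCF and blue ones lower, and dotted lines mark the ends of the Shh domain. Shh has 7 red windows on the En2 side, and Mnx1 has 9 blue windows in the domain.

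The average contact inside the Shh domain did not separate the maps, though parts of the domain differed slightly in opposite directions. The domain was set from the wild-type map, between its insulation minima next to Shh and in Lmbr1 (28,440,001 to 29,355,000). Contact inside it averaged 1.4549 in i4CTCF and 1.4553 in intraTAD2 (-0.00033, -0.014 to 0.014). The raised bin described below splits the domain into a Shh part and an Lmbr1 part. Inside the Lmbr1 part the log2 ratio was above 0 (0.042, 0.029 to 0.056), and between both parts it was below 0 (-0.035, -0.060 to -0.011). Inside the Shh part the interval held 0 (0.0053, -0.033 to 0.044). Contact across the Shh-side border was 1.02 in i4CTCF and 0.971 in intraTAD2 (0.066, 0.049 to 0.083), and that of the Shh part of the domain, from Shh to the raised bin described below, with the En2-side flank was 0.770 in i4CTCF and 0.694 in intraTAD2 (0.15, 0.11 to 0.18), with 0.748 in wild type. Contact across the Lmbr1-side border was 0.625 in i4CTCF and 0.643 in intraTAD2 (-0.039, -0.061 to -0.018). That sign turned with the median at each distance (0.075) and with bin pairs listed in both maps alone (0.32), the settings that raised the median of all windows. With the setting used here all of these differences were under 1.2-fold, but with bin pairs listed in both maps alone contact across either border was past it (0.30 on the Shh side).

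Insulation, the log2 of the contact across a position in a square of 100 kb a side, was less negative or more positive in i4CTCF over much of the domain. Of 182 positions in the domain, the difference had an interval above 0 at 87 and below 0 at 3, with a median difference of 0.056. Positions lie 5 kb apart, so the squares of neighbours share most of their bin pairs and the counts are not of separate places. The largest difference above 0 was at 28,990,001, 522.9 kb from the Shh start, with 0.099 in i4CTCF and -0.043 in intraTAD2 (0.14, 0.082 to 0.20), and the next 2 were its neighbours at 28,995,001 and 28,985,001. The largest differences below 0 in the domain, at 28,770,001 (-0.045, -0.080 to -0.0099), 28,780,001 and 28,775,001, were smaller. In the flanks, the largest differences above 0 were at 28,150,001, 28,145,001 and 28,155,001, next to En2, with 0.24 in i4CTCF and 0.11 in intraTAD2 at the first of them (0.13, 0.090 to 0.16). Those furthest below 0 were at 30,155,001, 30,150,001 and 30,165,001, near the end of the captured region, with 0.19 in i4CTCF and 0.42 in intraTAD2 at the first (-0.23, -0.29 to -0.17). On the En2 side as a whole the interval lay above 0 at 34 of 173 positions and below 0 at 51. On the Mnx1 side it lay above 0 at 7 of 164 positions and below 0 at 15. At the Shh-side border the score was -0.99 in i4CTCF and -1.07 in intraTAD2 (0.074, -0.016 to 0.16), and at the Lmbr1-side border -0.79 in i4CTCF and -0.81 in intraTAD2 (0.019, -0.046 to 0.083).

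**Figure D4:**
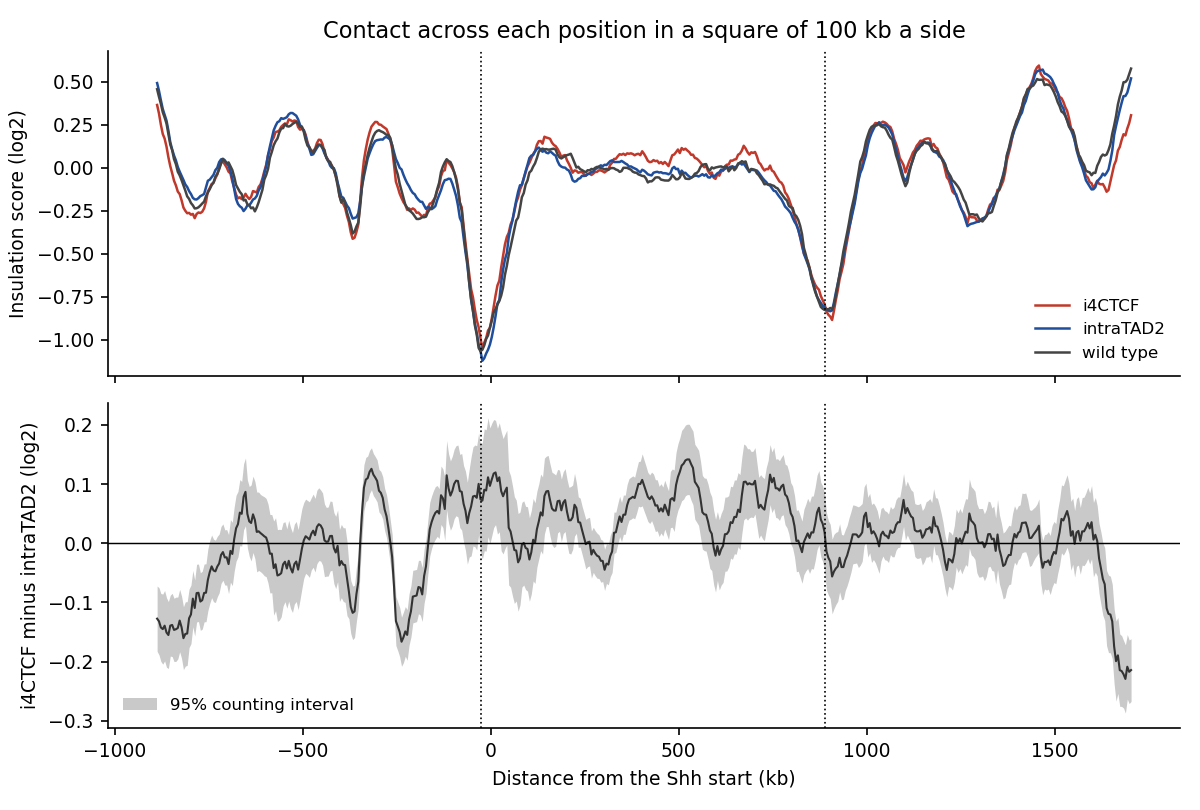
Insulation score (log2) of i4CTCF, intraTAD2 and wild type (top) and the difference i4CTCF minus intraTAD2 with its 95% counting interval (bottom), by distance from the Shh start in kb. Dotted lines mark the ends of the Shh domain, where the differences are 0.074 and 0.019. The difference reaches 0.14 inside the domain and -0.23 near the right end.

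Counting partners at least 20 kb away, Shh had 55.6% (54.8 to 56.4) of its contacts in the domain in i4CTCF and 60.2% (59.7 to 60.6) in intraTAD2, a difference of -4.58 percentage points. The share on the En2 side was 29.0% in i4CTCF and 26.2% in intraTAD2, and that on the Mnx1 side 15.4% in i4CTCF and 13.6% in intraTAD2. In wild type the shares were 54.8% in the domain, 28.5% on the En2 side and 16.7% on the Mnx1 side. These shares of Shh in i4CTCF thus lay nearer to wild type than those in intraTAD2. In the domain this was not particular to i4CTCF, as 1xBorCTCF had 54.6%. On the flanks 1xBorCTCF lay farther from wild type than i4CTCF, with 31.0% on the En2 side and 14.5% on the Mnx1 side. The shares use no distance normalisation, and the maps differed in the distances of their contacts. For Mnx1 the i4CTCF shares were not nearer to wild type throughout. Mnx1 had 21.1% of its contacts on the En2 side in i4CTCF, 16.9% in intraTAD2 and 21.2% in wild type. On its own side it had 63.5% in i4CTCF, 66.0% in intraTAD2 and 61.5% in wild type. In the domain it had 15.4% in i4CTCF, 17.1% in intraTAD2 and 17.3% in wild type, so there intraTAD2 lay nearer to wild type. The shares are of balanced contacts, with Clopper-Pearson intervals of the recovered contacts shifted onto them.

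Within the domain, the bin from 28,685,001 to 28,690,000 held the largest excess of contacts in intraTAD2 over wild type, by which it was chosen, so its intraTAD2 total is no finding. It held 10,172 contacts in i4CTCF, or 2.49 times the median bin, and 38,359 in intraTAD2, or 3.89 times. The other maps had 1.97 times (intraTAD3), 2.14 times (2xBorCTCF), 3.40 times (1xBorCTCF) and 2.06 times (wild type), so i4CTCF lay between wild type and intraTAD2. The log2 difference of -0.64 between i4CTCF and intraTAD2 uses the intraTAD2 value that chose the bin, so it is a description too. The next bin on the Shh side had 2.07 times the median in i4CTCF and 1.98 times in intraTAD2.

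After balancing, which removes such differences in a bin's total, 3 of the 13 contacts of this bin with the listed genes were called, all lower. No share of calls is given for all stretches of 1 bin against windows as wide as these genes. The bin was chosen by its intraTAD2 contacts, so the count is a description only. The Shh contact of the bin was 1.30 in i4CTCF and 1.37 in intraTAD2 (-0.082, -0.38 to 0.21), far under the 3.26 of 2xBorCTCF and the 2.62 of 1xBorCTCF, and beside the 1.15 of wild type. With Lmbr1 it was 1.79 in i4CTCF and 2.07 in intraTAD2 (-0.21, -0.38 to -0.040), under the threshold, but -0.80 with unbalanced contacts, which keep the difference in the bin's total. Its contact with Rnf32 was called lower, at 1.53 in i4CTCF and 1.89 in intraTAD2 (-0.30, -0.57 to -0.033), as was that with Ube3c, at 0.578 in i4CTCF and 0.788 in intraTAD2 (-0.45, -0.85 to -0.047). Its Mnx1 contact was 0.465 in i4CTCF and 0.914 in intraTAD2 (-0.98, -1.90 to -0.053), but rested on 11 contacts in i4CTCF and 91 in intraTAD2, and the interval reached above 0 with a smoothed expected value (-0.91, -1.85 to 0.023). The other 2 listed genes on the Mnx1 side, Nom1 (-0.12, -0.70 to 0.47) and Dnajb6 (-0.58, -1.25 to 0.080), were not called. In windows of 25 kb, 4.58% were called higher and 2.02% lower from all stretches of 1 bin. From the raised bin, 7 of 34 on the En2 side were called higher and 0 lower, and 0 of 10 on the Mnx1 side higher and 2 lower. One of the higher windows was that at 28,280,001, with 1.12 in i4CTCF and 0.632 in intraTAD2 (0.82, 0.34 to 1.30). The En2 side was not higher throughout. The contact of the bin with En2 itself was 0.424 in i4CTCF and 0.707 in intraTAD2 (-0.74, -1.50 to 0.032), that with Insig1 0.511 in i4CTCF and 0.732 in intraTAD2 (-0.52, -1.35 to 0.31), and the windows starting at 28,055,001 to 28,180,001 had log2 ratios of -0.66 to -0.32, none of them called.

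**Figure D5:**
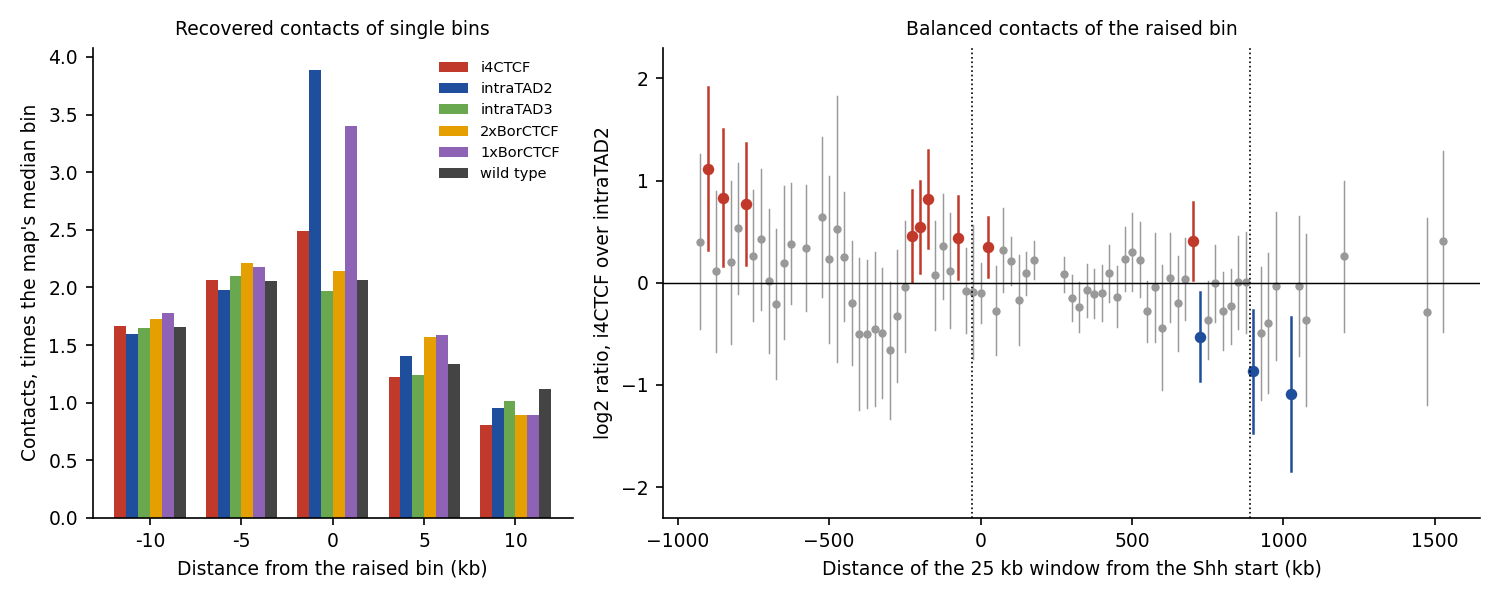
Recovered contacts of the raised bin and its neighbours as multiples of the median bin of each map (left, 6 maps), and the log2 ratio of the raised bin's balanced contact, i4CTCF over intraTAD2, with windows of 25 kb by distance from the Shh start in kb (right). Bars on the right are 95% counting intervals, with red called higher in i4CTCF, blue lower. The raised bin stands at 2.49 times the median in i4CTCF and 3.89 times in intraTAD2.

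At the scale of single 5 kb bin pairs, 41,370 pairs within 500 kb had at least 10 contacts over both maps. Of these, 1807 (4.37%) were 2-fold or more higher in i4CTCF and 3452 (8.34%) 2-fold or more lower. Such pairs rest on few contacts in the shallower i4CTCF map, in which 25.7% of the listed bin pairs of the whole region held a single contact, against 12.6% in intraTAD2, and no interval was set on them.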

How the data were processed

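Per the labels' protocols, limb buds were fixed with formaldehyde, and chromatin was cut with DpnII and religated, and sheared products were enriched with a custom SureSelect design for paired-end sequencing. Bowtie2 2.2.6 and 2 builds (mm9, mm10) are named in the submitters' processing notes. The deposited values are a contact signal per pair of bins of 5 kb that the authors balanced separately in each map by the Knight-Ruiz method from reads of mapping quality 30 or more, per the file names. Balancing aims to give all bins the same total. Whether duplicates were removed is not given in the sources used here. Of the maps, 1 column of values (wild type) is tied to no sample and is given as the authors' value. The build was checked by shifting the gene positions of GRCm38.p6 in 201 steps of up to 500 kb, where contact between genes was highest at 0 kb (2.57 on the log2 scale, against at most 1.05 beyond 50 kb).

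Whole contacts were recovered from the balanced values with Python 3.11.15, and 100% were whole within 0.01. A bin was left out where either map gave it fewer partners than 25% of the median. Values were divided by their mean at the same distance, and 95% intervals come from the weighted Poisson error of the contacts. Recovery and intervals were tested on simulated maps. PCR duplicates may remain, so intervals cover counting error only. The alternatives changed the distance normalisation, balancing, bin filters, window sizes and comparison map.

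The genes, windows and thresholds were chosen with earlier results of these data known. The text names each listed gene with Shh and with Lmbr1, the called gene pairs, the 5 windows of 50 kb furthest in each direction, and the 3 bins with the largest insulation rise and fall. The bins in Lmbr1 and the raised bin were chosen from their contacts in other comparisons of these maps.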

Additional observations from a re-analysis of the deposited data

How the results depend on the processing

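No paired analysis was possible because each genotype had 1 library and the result comes from no test; leaving out a replicate was not possible either. Over 14 summary values and 19 alternatives, 114 of 145 recomputed values stayed within the counting interval (counts: within 1.5 times), and 113 of 120 for the other named pairs. With the median at each distance, Shh to Lmbr1 was 0.014, contact inside the domain 0.044, across the Shh-side border 0.20 and across the Lmbr1-side border 0.075, with 171 windows of 50 kb higher and 12 lower, and 16 gene pairs higher and 1 lower. With bin pairs listed in both maps alone, contact inside the domain was 0.040, across the Shh-side border 0.30 and across the Lmbr1-side border 0.32, Paxip1 to Dnajb6 was 0.47, the share of Shh contacts in the domain differed by -5.71 points, 460 windows were higher and 3 lower, and 15 gene pairs were higher and 2 lower. Against the median of the other 5 maps, Shh to Lmbr1 was 0.027, contact inside the domain 0.048 and the share -2.92 points. With unbalanced contacts, contact inside the domain was -0.033 and 2 gene pairs were lower, and scaled by the map total it was -0.017 inside the domain and 0.094 across the Shh-side border. With a filter at 50% of the median partners 2 gene pairs were lower, and with gene bodies alone 7. Windows of 25 kb gave 133 higher and 100 lower, windows of 100 kb 5 and 5. There were 2259 bin pairs differing 2-fold with at least 20 contacts and 10,440 with no distance limit. A filter on bins sparse in any of the 6 maps and all alternatives for the named pairs beyond Shh to Lmbr1, En2 and Cnpy1 were chosen after seeing the data. Shares use no distance normalisation, so the smoothed expected value and the map total did not apply to them.

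Over the alternatives, En2–Shh ranged from 0.60 to 0.79, Cnpy1–Shh from 0.47 to 0.63, En2–Mnx1 from 0.47 to 0.86, Shh–Mnx1 from 0.30 to 0.48 and Cnpy1–Mnx1 from 0.27 to 0.49. The cause of the turned signs was not tested. Depth limits the precision through the 1,256,568 contacts of i4CTCF, the shallower map.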
